A study of Mus musculus with 2 samples.

Results

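The 9 chemokine receptor genes described here are Ccr1, Ccr2, Ccr6, Ccr7, Cxcr2, Cxcr3, Cxcr4, Cxcr5 and Cx3cr1. They were selected by gene name and are 9 of 37003 genes on the array, measured by 12 of 56597 probes. Their messenger RNA was measured in epithelial cells of the submandibular gland, a major salivary gland, from female C57BL/6 mice (C57BL/6N according to the methods) of 2 ages, 9 weeks (young) and 24 months (aged). The cells had been collected from the digested gland on magnetic beads that bind CD326, the epithelial cell adhesion molecule EpCAM. The methods give their purity as a lower bound only, so other cells may have been among them. One Agilent array per age received the Cy3-labelled RNA, and no mouse of either age carried an engineered allele or had been treated, as far as the labels state. There were no replicates (n = 1 per age), so no difference below has a replicate check, a test or a p-value. According to the methods, young mice were bought from a breeder and aged mice came from the colony of the research institute, so age and source cannot be told apart.

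Chemokine receptors are membrane proteins that span the cell membrane repeatedly and signal through inhibitory G proteins. They guide cells along gradients of chemokines, small secreted proteins named by the spacing of their first cysteines. Most of them are known from leukocytes, in which Ccr2 marks inflammatory monocytes, Ccr7 leads dendritic cells and naive T cells to lymphoid tissue, Cxcr5 leads B cells and follicular helper T cells into follicles, and Cx3cr1 marks resident macrophages and patrolling monocytes. Cxcr4 is found on many cell types, epithelial cells among them. In salivary glands, receptors and chemokines of this family are studied because lymphocytes gather around the ducts with age and in Sjögren's syndrome.

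On both arrays, 4 of the 9 receptors (Ccr2, Ccr7, Cxcr4 and Cx3cr1) were well above background, and all 4 were lower in the aged cells, beside 40.1% of the 18745 genes measured on both. Ccr2 was 7.99-fold lower, Ccr7 6.44-fold lower, Cx3cr1 2.16-fold lower and Cxcr4 1.61-fold lower. The other 5 receptors (Ccr1, Ccr6, Cxcr2, Cxcr3 and Cxcr5) were well above background on neither array, and the 4 of 9 that were can be read beside 57.7% of all genes. Cxcr5, the receptor of Cxcl13, was thus not well above background at either age. In RNA of a whole sorted sample, fewer cells of a type and less RNA per cell cannot be told apart.

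The values behind these statements are intensities of single spots. The mark "well above background" is set by the scanner software for each spot, and the lowest signal that carried it was 14.1 (young) and 14.3 (aged). Each signal was divided by the 75th percentile of its array, 256 at 9 weeks and 198 at 24 months, and all differences are aged minus young on the log2 scale of this ratio. The error given after ± is the software's own error of the processed signal, and the error of a difference is propagated from it. It covers the measurement of a spot and not the spread between mice. For 293 probes that have 10 spots each and were measured at both ages, the difference had a median SD of 0.033 over the spots, against 0.17 for the 7 of them with an aged signal under 100.

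The probes are shown because each receptor was read by 1 or 2 of them and by no other part of its transcript. All are 60 bases long, and 30 bases from the 5′ end of the 7 probes the results turn on are given, 1 probe a line, in lower case, namely the 6 measured at either age and that of Cxcr5.
Ccr2 probe A_51_P245989: gaagcagggacagaattcttgctttgaaaa
Ccr7 probe A_55_P2023542: cagccactgatacctttcctcatgttctgc
Ccr7 probe A_51_P420229: cttctagcttagagagatgtcccggagatt
Cx3cr1 probe A_55_P2007964: cgtgcctagagtgtgtctatcccacttgta
Cx3cr1 probe A_52_P99810: caagaatgtcttcatgcattcactgactcc
Cxcr4 probe A_52_P585124: aggaagaaactgaacattccagaatgtgtg
Cxcr5 probe A_52_P70796: gggaaaccaatgctatagcttcagagactg
By the files' coordinates (build NCBI37, mm9), the Ccr2 probe lies at chr9:124022948-124023007 on the plus strand. The 2 Ccr7 probes are on the minus strand, at chr11:99005551-99005610 for the probe A_55_P2023542 and at chr11:99005513-99005538 for A_51_P420229, of which the files place 26 bases only. The 2 Cx3cr1 probes are at chr9:119957811-119957870 and chr9:119959018-119959077, the Cxcr4 probe is at chr1:130485079-130485138 and the Cxcr5 probe at chr9:44320071-44320130. No annotation of this build was used here, so whether a probe lies in a coding or a noncoding part of its exon is not stated. The GC content of the 12 probes ran from 21.7% (Ccr1) to 53.3% (Cxcr2), around a median of 41.7% over all probes of the array.

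**Figure D1:**
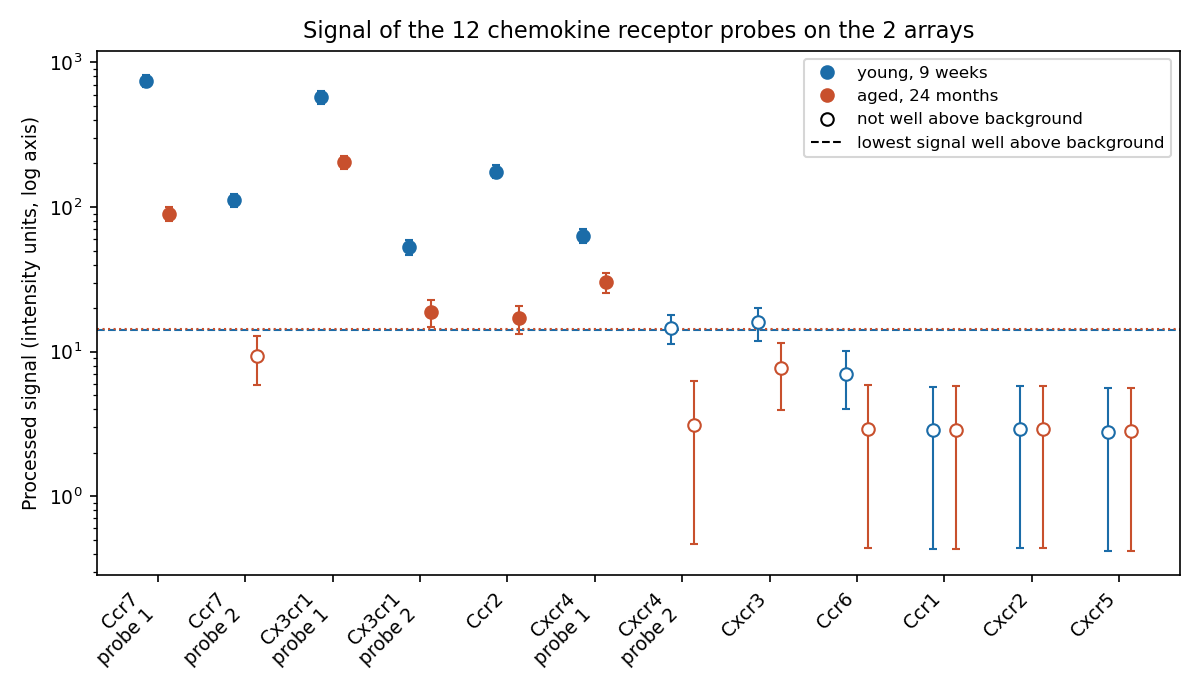
Processed signal (intensity units, log axis) of the 12 probes of the 9 receptors, with the young array in blue and the aged array in orange, error bars for the software's error of the signal and open circles for spots not well above background. Probe 1 is the probe that stands for its gene, dashed and dotted lines mark the detection floors of the young and aged array (14.1 and 14.3), and every probe that was well above background on the young array was lower on the aged one.

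Ccr2 binds monocyte chemoattractants such as Ccl2 and draws monocytes out of bone marrow and into tissue. Its only probe had a signal of 176 ± 17.9 at 9 weeks and 17.0 ± 3.70 at 24 months. Relative to the 75th percentile, this was -0.54 and -3.54, a difference of -3.00 with an error of 0.35. The aged signal was thus just above the lowest signal that counted as measured, whereas the young signal was far above it. Before background subtraction the spot had raw mean intensities of 212 and 52.4, against a median of 33.1 and 33.5 for the 308 negative control spots. Among 18745 genes measured on both arrays, 19 (0.101%) had a larger drop than Ccr2. Normexp, a background correction that starts from the raw intensities and adds an offset of 50, gave Ccr2 a difference of -1.31, and the other scalings gave -3.26 to -2.82.

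Ccr7 binds Ccl19 and Ccl21a, the chemokines of lymphoid tissue. The probe that stands for it gave 749 ± 75.01 at 9 weeks and 89.9 ± 9.51 at 24 months, or 1.55 and -1.14 relative to the 75th percentile. The difference was -2.69 with an error of 0.21, and 24 genes (0.128%) had a larger drop. The second Ccr7 probe gave 112 ± 11.6 and 9.31 ± 3.41, and its aged spot was not well above background. A lower limit was therefore computed for it by setting the young value against the aged array's detection floor of 14.3. By this limit Ccr7 was at least 6.06-fold lower in the aged cells, beside the 6.44-fold of the brighter probe. With normexp the limit of the second probe was 1.98-fold, and the difference of the brighter probe was -2.16.

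Cx3cr1 is the receptor of Cx3cl1 (fractalkine), a chemokine that epithelial and endothelial cells carry on their membrane. Its brighter probe had a signal of 572 ± 57.3 at 9 weeks and 205 ± 20.8 at 24 months, 1.16 and 0.050 relative to the 75th percentile. The difference was -1.11 with an error of 0.21, and 468 genes (2.50%) had a larger drop. The second probe was dimmer, with 52.7 ± 6.31 and 18.9 ± 3.98, and was measured on both arrays. Both probes of Cx3cr1 gave the same difference of -1.11 (2.16-fold), with an error of 0.35 for the dimmer probe. This is near the 2-fold mark, and Cx3cr1 was under 2-fold with centring on the median (-0.93) and with normexp (-0.91).

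Cxcr4 is the receptor of Cxcl12, which retains cells in bone marrow and acts in gland development. The probe that stands for it gave 63.2 ± 7.25 at 9 weeks and 30.3 ± 4.70 at 24 months, -2.02 and -2.71 relative to the 75th percentile. The difference of -0.69 had an error of 0.28, and 1074 genes (5.73%) had a larger drop. The second Cxcr4 probe, at chr1:130486114-130486173, gave 14.6 at 9 weeks and a substitute value of 3.13 at 24 months, which the software writes where no signal could be measured. It was well above background on neither array and gives no fold. Cxcr4 stayed under 2-fold in every scaling tried, from -0.95 with the arrays set level on the spike-in controls to -0.14 with normexp.

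The 5 receptors without a measured level were not all equally dark. Cxcr3, a receptor of activated T cells for Cxcl9 and Cxcl10, had a signal of 15.9 ± 4.03 at 9 weeks and 7.72 ± 3.79 at 24 months. Both spots were marked positive and significant, a weaker mark than well above background. Ccr6, the receptor of Ccl20 on B cells and interleukin-17-producing T cells, gave 7.03 ± 2.998 on the young array with that weaker mark, and a substitute value of 2.92 on the aged array. The weaker mark was carried by 6 of the 9 receptors at 9 weeks and by 5 at 24 months, the sixth being Ccr6. The young signal of Ccr6 was below the lowest that counted as well above background. No share of all genes is given for the weaker mark. These counts therefore do not show that a receptor was lost with age.

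Ccr1, Cxcr2 and Cxcr5 had substitute values on both arrays, so their values carry no order between the ages. Ccr1 and Cxcr2 guide monocytes and neutrophils. For the Ccr1 spot the raw mean intensity was 35.8 at 9 weeks and 35.6 at 24 months. The Cxcr2 spot had 35.6 and 35.0. The Cxcr5 spot had 34.0 at 9 weeks, below the background of 36.3 subtracted from it, and 39.3 at 24 months, above its background of 36.6. The 95th percentile of the negative control spots was 39.9 on each array, above all of these raw values.

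**Figure D2:**
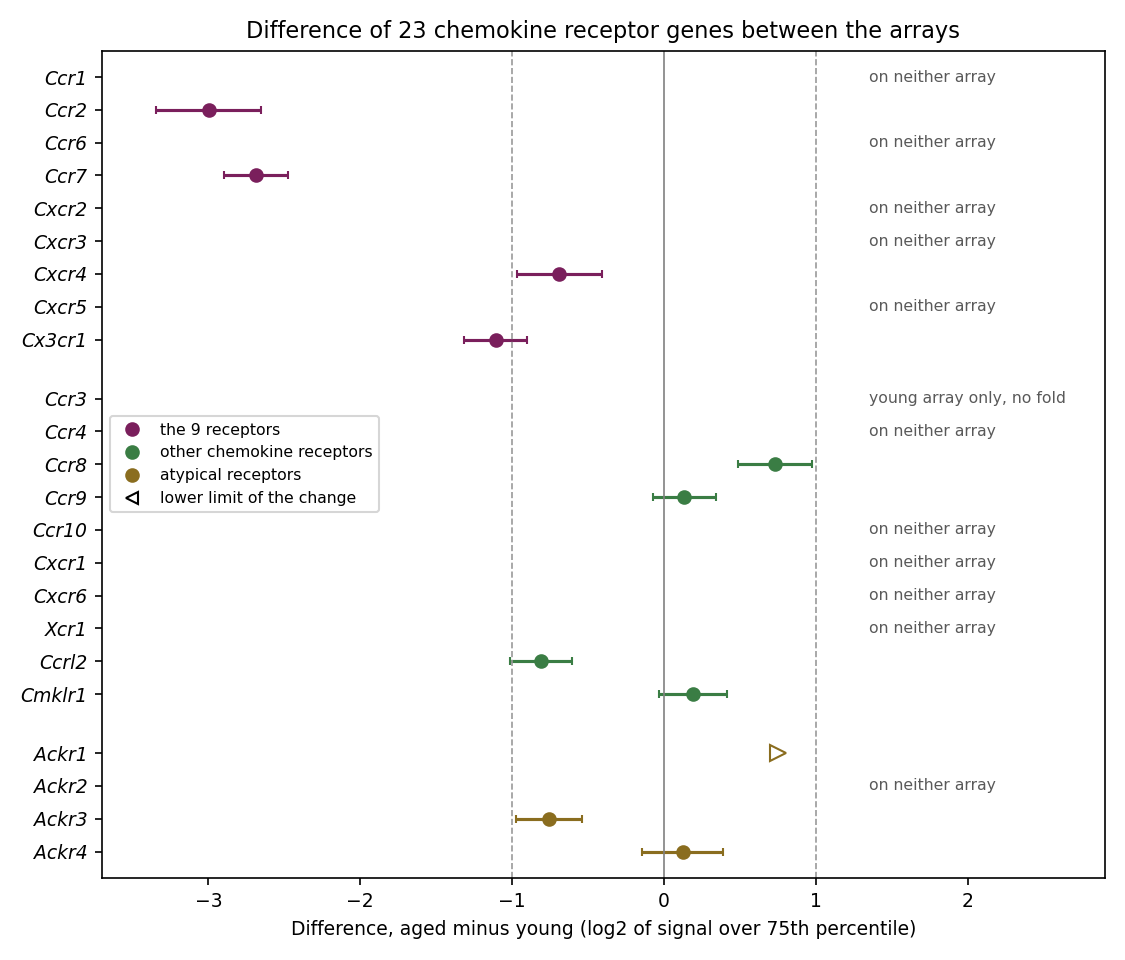
Difference (aged minus young, log2 of signal over the 75th percentile) of 23 chemokine receptor genes, with error bars for the propagated software error, dashed lines at 2-fold and open triangles for lower limits of a change where 1 array measured the gene. Ccr2 and Ccr7 lie at -3.00 and -2.69, Cx3cr1 at -1.11, and no other receptor shown passed 2-fold in the processing as reported.

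By the 2-fold threshold of the methods, 3 of the 9 receptors were lower in the aged cells and 0 were higher. These are 3 of the 4 receptors measured on both arrays, beside 3.05% (571) lower and 1.52% (284) higher of the 18745 genes measured on both. The split of all genes moved with the scaling, to 417 lower and 464 higher with centring on the median and to 934 lower and 150 higher with the spike-in controls. The median difference of the 4 measured receptors was -1.90, against 0.094 over all genes measured on both arrays. With centring on the median or normexp, 2 receptors (Ccr2 and Ccr7) were at least 2-fold lower, and 0 receptors were at least 2-fold higher in any setting.

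Atypical receptors bind chemokines without signalling through G proteins. Across the rest of the family, 10 further receptors (the chemerin-binding Ccrl2 and Cmklr1 among them) and 4 listed as atypical were examined. Of these genes, 6 were measured on both arrays and 0 passed 2-fold, or 2 (Ccrl2 at -1.07 and Ackr3 at -1.02) with the arrays set level on the spike-in controls. The largest drop was that of Ccrl2, a receptor that presents chemerin, from 864 to 381 (-0.81, error 0.20). Ackr3, a scavenger of Cxcl12 that shares this ligand with Cxcr4, went from 162 to 74.0 (-0.76, error 0.22), and Cxcr4 and Ackr3 thus had similar differences. Ccr8, known from regulatory and skin-homing T cells, was higher, with 40.7 at 9 weeks and 52.2 at 24 months (0.73, error 0.24). Ccr9, the gut-homing receptor, Cmklr1, the chemerin receptor, and Ackr4, a scavenger of the Ccr7 ligands, had differences of 0.13, 0.19 and 0.12, each of which turned negative in at least 1 scaling. Ackr1, the chemokine-binding receptor of venules and red cells, was measured at 24 months alone, at 18.3 against 9.12, at least 1.68-fold higher. Ccr3, of eosinophils, was measured on the young array only, at 17.2 against 9.81, too dim for a limit. Ccr4, Ccr10, Cxcr1, Cxcr6, Xcr1 and Ackr2 were well above background on neither array.

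Position in the genome was not shared by the receptors that were lower. Of the 23 receptor genes examined, 13 lie on chromosome 9, among them 4 of the 9 receptors (Ccr1, Ccr2, Cxcr5 and Cx3cr1). The probes of Ccr1, Ccr3 and Ccr2 fall within 145 kb, at chr9:123877790-124023007. Among these 3 genes, Ccr2 was measured on both arrays, Ccr3 at 9 weeks alone, and Ccr1 at neither age.

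Promoter sequence was examined for the receptors in RefSeq (GRCm38.p6), which had 8 windows for 7 of the 9 receptors and none for Ccr7 and Cxcr5. The 250 bases before the start of Ccr2 (chr9:124101933-124102182, plus strand) and Cxcr4 (chr1:128592300-128592549, minus strand) are given because these receptors had the largest and the smallest measured difference. CG dinucleotides are in capitals.
Ccr2 promoter: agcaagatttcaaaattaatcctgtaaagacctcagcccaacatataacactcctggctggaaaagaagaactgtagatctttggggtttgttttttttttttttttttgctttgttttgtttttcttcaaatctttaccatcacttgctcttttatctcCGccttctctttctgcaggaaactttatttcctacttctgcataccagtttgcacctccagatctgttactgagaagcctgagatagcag
Cxcr4 promoter: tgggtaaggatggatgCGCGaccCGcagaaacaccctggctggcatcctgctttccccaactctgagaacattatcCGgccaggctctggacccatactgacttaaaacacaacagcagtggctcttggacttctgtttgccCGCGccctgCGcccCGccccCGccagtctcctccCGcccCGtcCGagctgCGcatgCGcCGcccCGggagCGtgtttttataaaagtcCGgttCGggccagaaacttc
The Ccr2 window holds 1 CG and the Cxcr4 window 19, with a GC content of 61.2%. The windows of Ccr1, Cxcr2, Cxcr3 and Cx3cr1 hold 1, 1, 3 and 4, and the 2 windows of Ccr6 hold 1 and 7. Over all 32851 windows of this length, the median was 6, 92.1% held at least 1 CG, and 80.3% held fewer than Cxcr4. With 4 measured receptors, no relation between CG content and the difference was computed.

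**Figure D3:**
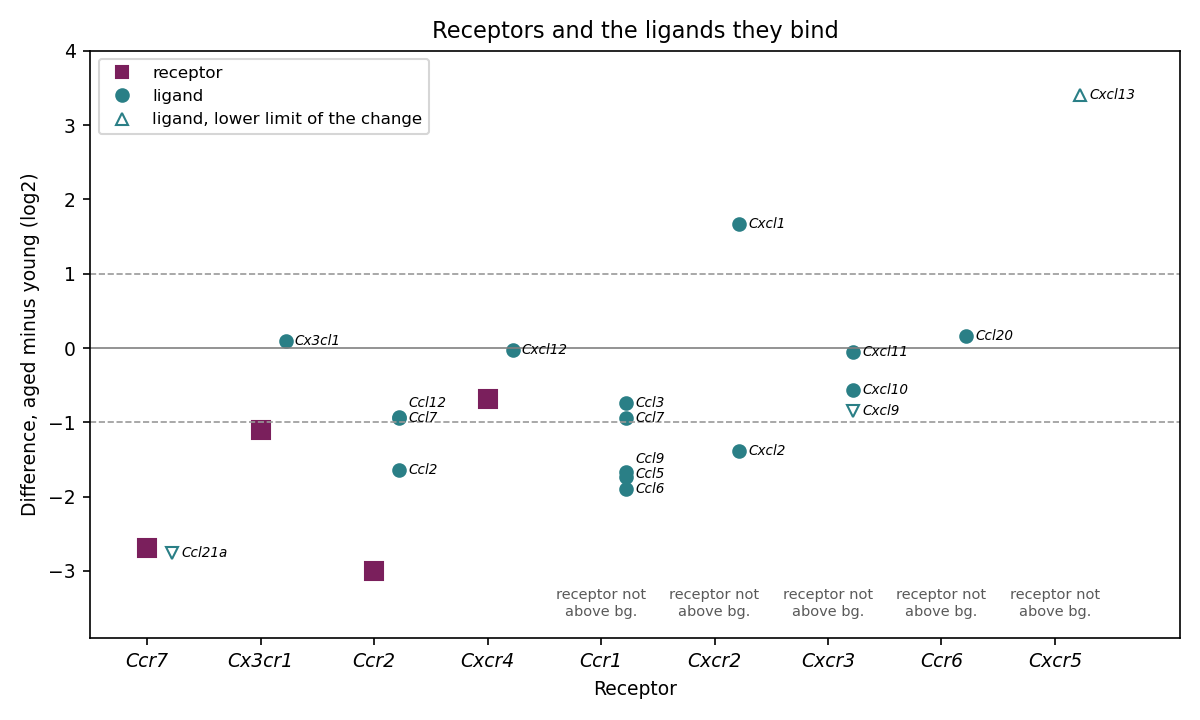
Difference (aged minus young, log2) of each receptor that was measured (squares) and of its ligands (circles), with triangles for lower limits and dashed lines at 2-fold. Ccr7 and its ligand Ccl21a were both lower, Ccr2 was lower together with Ccl2, Ccl7 and Ccl12, and Cxcl13 was higher while its receptor Cxcr5 was not well above background.

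The ligands of the 9 receptors were set beside them. Of 22 ligand genes, 15 gave a signal at both ages, their median was -0.74, and 5 of them were lower (8 with the spike-in controls) and 2 higher by 2-fold or more. These counts include Ccl8, one of the 2 higher genes, which in mice acts through Ccr8 and not through one of the 9 receptors. For Ccr2, the ligand Ccl2 went from 1813 to 451 (-1.64), and Ccl7 and Ccl12 differed by -0.94 and -0.92. For Ccr7, Ccl21a had a signal of 125 at 9 weeks and 12.2 at 24 months, where it was not well above background, at least 6.79-fold lower. Such a limit reached 2-fold for 24.9% of the 2116 genes seen in the young sample alone. Ccl21a has near-identical copies in the mouse genome that its probe may not tell apart. The other ligand, Ccl19, was well above background on neither array.

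For Cx3cr1 and Cxcr4, the ligands had smaller differences than the receptors. Cx3cl1 had 1967 at 9 weeks and 1615 at 24 months (0.088), and its dimmer probe gave 0.11. Cxcl12 had 352 and 266 (-0.032), with -0.55 by its dimmer probe. The signs of both genes' main values changed with the scaling, from -0.18 to 0.26 for Cx3cl1 and from -0.29 to 0.14 for Cxcl12. The receptors were lower in all of these scalings.

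Ligands were measured also for receptors that were not well above background. The Ccr1 ligands Ccl5, Ccl6 and Ccl9 were lower (-1.73, -1.90 and -1.67), and Ccl3 differed by -0.74. Of the Cxcr2 ligands, which attract neutrophils, Cxcl1 was higher (3455 and 8478, 1.67), Cxcl2 was lower (-1.38), and Cxcl3, Cxcl5 and Ppbp were well above background on neither array. The Cxcr3 ligands Cxcl10 and Cxcl11 differed by -0.57 and -0.048 (the latter positive in 1 or more scalings), and Cxcl9 was at least 1.80-fold lower by its limit. The Cxcl11 value rests on a probe with signals of 173053 and 129303, a level not matched by its second probe (3139 and 2293, -0.081). Ccl20, the ligand of Ccr6, was close to the lowest measurable signal at both ages (18.5 and 16.0). Cxcl13, the ligand of Cxcr5, had a signal of 3.59 at 9 weeks, where it was not well above background, and 115 at 24 months, at least 10.6-fold higher. The corresponding limit reached 2-fold for 52.6% of the 485 genes seen in the aged sample alone. Ccl8 was higher by 1.39.

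Genes that carry or stop the receptors' signal did not all move one way. Of 15 signalling genes, 13 were measured on both arrays with a median of -0.067, and 3 were at least 2-fold lower, namely Gng2, a G protein gamma subunit (-1.50), Gnai1, an inhibitory alpha subunit (-1.45), and Rac2, the Rac protein of blood cells (-1.42). With normexp all 3 were under 2-fold, at -0.66, -0.79 and -0.93. Dock2 and Pik3r5, both of leukocytes, gave a signal at 9 weeks alone, with limits of 3.002-fold and 2.93-fold lower. Gnai2, the main inhibitory alpha subunit of leukocytes and other cells, differed by -0.0085, with a sign that changed with the scaling, and Gnb1 was higher by 0.38. Of 13 genes of desensitization and trafficking, 10 were measured on both arrays with a median of -0.11. Rgs1, which shortens G protein signalling in lymphocytes, was lower (-1.29), Wipf1, a partner of the Wiskott-Aldrich protein, was at least 3.87-fold lower, and the arrestin Arrb2 differed by -0.88. The kinase Grk2 (-0.038) and the arrestin Arrb1 (0.19) changed sign with the scaling.

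**Figure D4:**
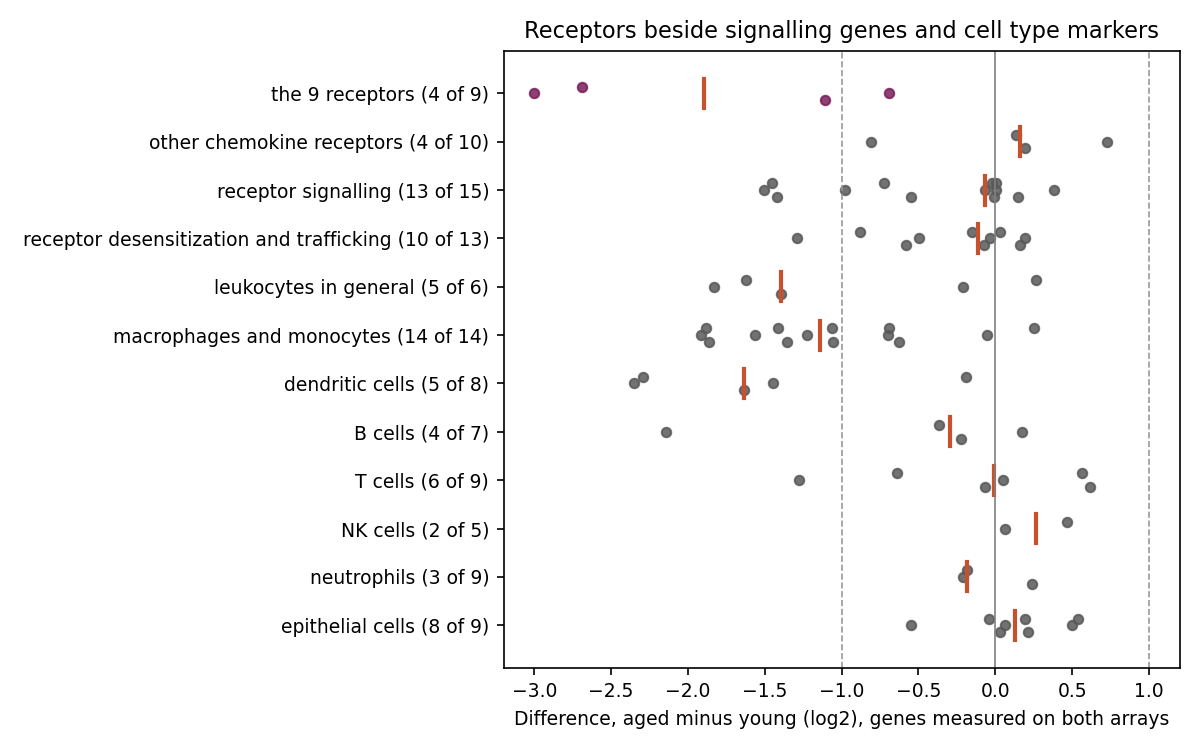
Difference (aged minus young, log2) of the genes measured on both arrays in each list, 1 point a gene with the median as a vertical bar, dashed lines at 2-fold and the number measured out of the list's total beside each name. Ccr2 and Ccr7 lie below every gene of the other lists shown (the lowest is -2.35), and Cx3cr1 lies near the macrophage median of -1.14, while the median of the epithelial markers is 0.13. Genes measured on 1 array only are not shown, among them the dendritic cell marker Cd209a, at least 10.4-fold lower. With normexp, Clec10a (-1.80) lay below Ccr2 (-1.31).

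Markers of other cell types were examined beside the receptors. The sorted cells carried the epithelial markers Epcam, Cdh1, Krt8 and Krt18 on both arrays, with differences of 0.20, 0.061, 0.032 and 0.21 that changed sign with the scaling, and Krt19 was measured on the young array only. Of 9 epithelial markers, 8 were measured on both arrays and 0 passed 2-fold. The summed level of these 8 was 521 at 9 weeks and 580 at 24 months in multiples of the 75th percentile. Without Krt18, the brightest, it was 191 and 197. All 14 macrophage and monocyte markers were measured on both arrays, and 9 were at least 2-fold lower (7 with normexp or median centring). Lyz2 (-1.91), Mrc1 (-1.88), Cd163 (-1.86) and Adgre1 (-1.36) were among those 9. The summed level of the 14 markers was 215 and 118. Lyz2, the brightest at 9 weeks, went from a signal of 23810 to 4884, so a single gene weighs heavily on this sum. Csf1r, the receptor that macrophages depend on, differed by -0.62, and Ly6c2, of inflammatory monocytes, by 0.25 (with a sign that changed with the scaling).

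Of 8 dendritic cell markers, 5 were measured on both arrays, and Clec10a (-2.35), Batf3 (-2.29), Itgax (-1.64) and Flt3 (-1.45) were at least 2-fold lower. With normexp Batf3 (-0.80) and Flt3 (-0.39) were under 2-fold. Siglech differed by -0.19. Cd209a was at least 10.4-fold lower by its limit and Zbtb46 at least 1.16-fold lower, and Clec9a, measured on the young array only, was too dim for a limit. The summed level of the 5 markers measured on both arrays was 254 at 9 weeks and 220 at 24 months. Without Siglech, whose brightest probe outweighed the others and was not matched by its 2 dark probes, it was 4.79 and 1.16. Ccr7 is known from migrating cells of this type as well as from lymphocytes. The part of these cells in the lower signals of Ccr2, Ccr7 and Cx3cr1 was not tested.

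Lymphocyte, natural killer cell and neutrophil markers did not move one way. The T cell markers Cd3e and Cd3d differed by 0.56 and 0.62, with Cd3d near the detection floor at both ages (18.0 and 21.4, error 0.41). Cd2 differed by -1.28 (-0.63 with normexp), and Cd4 (0.051), Lck (-0.066) and Cd28 (-0.64) differed less than Cd2. The signs of Cd4 and Lck changed with the scaling. Cd3g was at least 2.06-fold lower, and Cd8a and Cd5 were well above background on neither array. The summed level of the 6 T cell markers measured on both arrays was 10.99 and 12.8, or 4.76 and 6.35 without Cd4, the brightest. Among 7 B cell markers, Cd79b was lower (-2.14, and -0.87 with normexp), Ms4a1 was at least 1.94-fold lower, and Cd79a and Blk were well above background on neither array. Cd22 (-0.22), Fcer2a (-0.36) and Pax5 (0.17) differed less, and the signs of Fcer2a and Pax5 changed with the scaling. The summed level of the 4 measured on both arrays was 2.50 and 1.91. Cxcr5, which these cells carry, was dark beside them on both arrays. Of 5 natural killer cell markers, Klrk1 and Nkg7 were measured (summed level 1.21 and 1.59), and Ncr1, Klrb1c and Eomes were not. The neutrophil markers S100a8, S100a9 and Ngp were at least 3.98-fold, 14.0-fold and 2.30-fold higher by their limits, while Mpo and Mmp8, like the neutrophil receptor Cxcr2, were well above background on neither array. Camp was at least 1.21-fold lower by its limit. The 3 neutrophil markers measured on both arrays were Ly6g (-0.18), Csf3r (-0.21) and Elane (0.24). The signs of Ly6g and Elane changed with the scaling. The summed level of these 3 markers was 82.4 and 72.2, or 2.97 and 3.42 without Csf3r, the brightest.

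Among 6 general leukocyte markers, Cd52 (-1.83), Coro1a (-1.62) and Laptm5 (-1.40, and -0.87 with normexp) were at least 2-fold lower, and Cd53 was at least 3.02-fold lower by its limit. The summed level of the 5 measured on both arrays was 23.0 at 9 weeks and 13.2 at 24 months. Probes disagreed for Ptprc, which encodes CD45, with -0.21 by the brightest and -1.53 by another probe, and for Arhgdib, with 0.27 and -1.61. Over the 58 genes of the leukocyte lists, 39 were measured on both arrays. Of these, 18 were at least 2-fold lower (11 with normexp) and 0 at least 2-fold higher, beside 3.05% and 1.52% of all genes. A further 7 leukocyte genes gave a signal on the young array alone, and the limit passed 2-fold for 3 of them. Another 3 gave a signal on the aged array alone, and it passed 2-fold for all 3. Among all genes seen on 1 array, this held for 24.9% (young alone) and 52.6% (aged alone). The median of these 39 genes was -0.69, and the differences of Ccr2, Ccr7 and Cx3cr1 were larger drops than this, while Cxcr4 lay at it.

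**Figure D5:**
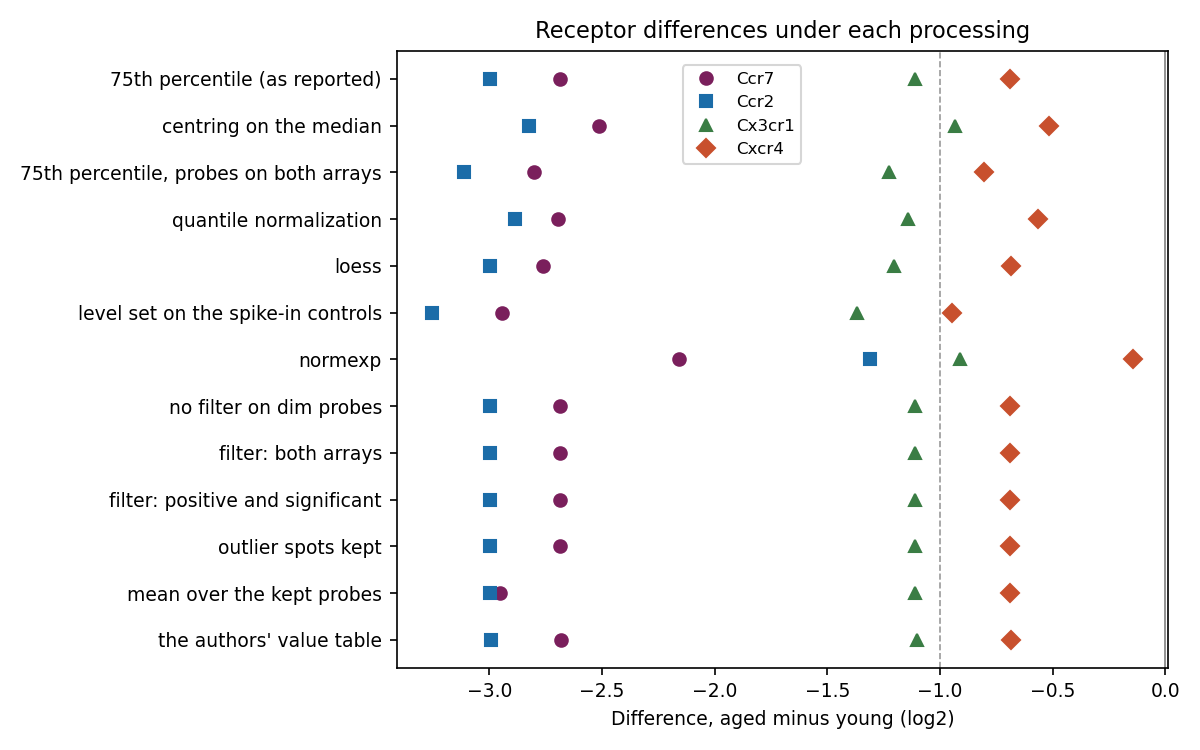
Difference (aged minus young, log2) of the 4 receptors measured on both arrays under the processing as reported and 12 other settings, with the dashed line at 2-fold lower. All points lie below 0, and normexp moved Ccr2 from -3.00 to -1.31 and Cxcr4 from -0.69 to -0.14. The 3 filters for dim probes and keeping outliers left all 4 receptors unchanged.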

How the data were processed

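RNA of sorted submandibular gland epithelial cells from 1 young and 1 aged sample was measured on Agilent one-colour mouse arrays of the 8 × 60K format on 1 slide. The authors deposited scanner files made with Feature Extraction 12.0.3.1 (version per the submitters' processing notes), which hold the processed intensity of each spot after background subtraction and removal of trends, with its error, the raw intensity and marks for outliers, saturation and spots well above background. The deposited value table, made with GeneSpring, holds a ratio, the same intensity over 1 constant per array (229 and 176, the 75th percentiles of all spots, followed by 100% of spots within 0.1%). The scale and direction of that table are thus known, its values are not log transformed or centred, and its medians were 0.0922 and 0.0817.

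Here log2 of the processed intensity was taken and that of the array's 75th percentile (59305 spots without controls) was subtracted. Outlier spots (90 and 93) were left out, repeated spots were averaged, none was saturated, and a gene took the values of the probe with the highest mean log2 signal among those well above background in either sample (30907 of 56597 probes). At 9 weeks 55.4% and at 24 months 50.8% of spots were well above background, and the number of arrays limits the precision. Where 1 array measured a probe, a lower limit was computed from its value and the dim array's detection floor (14.1 or 14.3) or the probe's own dim signal, whichever was larger, and no fold is given where this came out under 1-fold. A 2-fold difference was the threshold. Gene names were updated through RefSeq accessions for 33767 probes, of which 877 were renamed.

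The 9 receptors and the gene lists were chosen with earlier results of these data known. Some listed genes are not reported here and were left out of the lists' counts and medians. The genes named were all receptors, all ligands of the 9 receptors, and, of the other lists, those past 2-fold, the largest difference each way, up to 4 a list, and defining markers. Genes named beyond this rule (Gnai2, Arrb2, Grk2, some T cell and neutrophil markers, and second probes of genes outside the receptors) were chosen after their values were seen. The 12 alternatives were other scalings (median, 75th percentile over probes measured on both arrays, quantile, loess with span 0.7, spike-in controls), normexp with an offset of 50, 3 different filters for dim probes, keeping outliers, averaging probes and the authors' table. R 4.3.3 with limma 3.58.1 and Python 3.11.15 with numpy 2.4.6, pandas 2.3.3 and matplotlib 3.10.9 were used, and the steps were tested on simulated data.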

Additional observations from a re-analysis of the deposited data

How the results depend on the processing

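The direction of all 4 measured receptors was lower in the aged cells under the processing as reported and the 12 alternatives. Of these alternatives, the 3 filters for dim probes and keeping outliers left all 4 values unchanged. The authors' table holds the same signal over another constant, and averaging had only 1 kept probe for Ccr2 and Cxcr4. Such settings did not put the direction to a test. Sizes moved by more than the software's error with normexp (Ccr2 -1.31, Ccr7 -2.16, Cxcr4 -0.14), with the spike-in controls (Ccr7 -2.94, Cx3cr1 -1.37) and with the mean of probes (Ccr7 -2.95). The spike-in scaling shifts all genes by -0.26, which is the whole of its move for Ccr7 and Cx3cr1. The mean of probes for Ccr7 takes in its second probe, at -3.21, whose aged spot was not well above background. The cause of the normexp moves was not tested. Against the processing as reported, the median of all genes shifted by -0.14 with loess and by 0.17 with median centring, so sizes are relative to the scaling. The count of receptors at least 2-fold lower was 3, or 2 with median centring and normexp. Over all genes, 571 lower and 284 higher became 209 and 107 with normexp, 934 and 150 with the spike-in controls and 417 and 464 with median centring.

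Medians over the genes well above background on at least 1 array moved as follows. With the spike-in controls they were -2.16 (the 9 receptors, -1.90 as reported), -0.13 (other receptors, 0.13), -0.13 (atypical receptors, 0.12), -1.09 (ligands, -0.83), -0.81 (signalling, -0.55), -0.41 (desensitization, -0.15), -1.75 (general leukocytes, -1.50), -0.62 (B cells, -0.36), -0.32 (T cells, -0.066), 0.0072 (natural killer cells, 0.26), -1.40 (macrophages, -1.14), -2.08 (dendritic cells, -1.82), -0.020 (neutrophils, 0.24) and -0.20 (epithelial cells, 0.061). With normexp they were -1.11 (the 9 receptors), -0.23 (signalling), -0.63 (general leukocytes), -0.60 (dendritic cells) and -0.0055 (epithelial cells). With median centring, desensitization (0.022) and T cells (0.11) turned positive. Epithelial cells were at -0.054 with the 75th percentile over probes measured on both arrays, -0.30 with quantile normalization and -0.40 with loess, and signalling at -0.75 with loess. With no filter on dim probes the medians were -0.69 (the 9 receptors) and -0.31 (ligands). With probes measured on both arrays only they were -0.32 (atypical receptors), -0.067 (signalling) and -0.18 (neutrophils), and with the weaker positive and significant mark -1.003 (the 9 receptors) and -0.15 (other receptors). Of the receptors' differences and the lists' medians under the alternatives, 178 stayed within the error, 25 moved and 13 changed sign. The 178 include values that a setting left unchanged.

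No paired analysis was possible because each age has 1 array, and for the same reason none was left out. Signals near 14 limit what can be said of 5 receptors, whose absence is not shown.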
